A study of Mus musculus with 24 samples.

Results

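EMS404 cells that received TGFb while the TGFb receptor inhibitor SB431542 was present were compared with vehicle cells, over all genes of an RNA-seq table, to measure how far inhibited cells return to the untreated state and what stays different. The comparison uses 6 libraries, 3 labelled SB431542+TGFb and 3 vehicle, of 24 in the series, and 11297 of 16604 genes passed the filter of at least 1 FPKM in at least 3 of the 24 libraries. EMS404 is a hepatic stellate cell line from C57Bl6 mouse liver that was immortalized with SV40 and expresses human TLR4, so both groups carry these changes. The SB431542+TGFb cells had SB431542 for 24 hours and then SB431542 with 10 ng/mL TGFb for an additional 24 hours. Cells given SB431542 alone, cells given TGFb alone and vehicle cells (labelled untreated, with library names that read DMSO vehicle) stand beside them, 3 libraries each. The sources used here give neither the dose of SB431542 nor whether groups without TGFb had the second day of culture, so the ligand and a further day cannot be told apart in comparisons of groups with and without TGFb. The samples are described as biological triplicates of 1 line, so p-values measure the spread between cultures and not between animals. For single genes this spread was pooled over all 8 groups of the series.

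TGFb is a secreted factor that binds a type II receptor kinase, which recruits and activates the type I receptor ALK5 (gene Tgfbr1), and ALK5 phosphorylates SMAD2 and SMAD3. In stellate cells of an injured liver this pathway drives collagen and contractile genes and turns the cell into a myofibroblast. SB431542 blocks the kinase of ALK5 and of its relatives ALK4 and ALK7, which also serve activins and nodal, and leaves the type I receptors of the BMP branch largely alone. Serum and the cells themselves can supply some TGFb or activin, so cells without added ligand can have a basal signal.

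The 12 libraries of these 4 groups were close in size. The FPKM values summed to 538134 to 542370 in SB431542+TGFb libraries and 543014 to 559906 in vehicle libraries, and the relative depth, read from the smallest steps of 26 low genes, lay between 0.957 and 1.049 in all 12. The number of reads is unknown, so no counting error can be attached to a level. Of the markers of stellate cells and fibroblasts, Col1a1, Col3a1, Dcn, Vim, Pdgfrb, Hand2 and Lhx2 were expressed, the summed level being 3660 to 3780 FPKM in SB431542+TGFb libraries and 3650 to 3710 FPKM in vehicle libraries. Des, the intermediate filament that defines rodent stellate cells in tissue, was at 0.16 to 0.26 FPKM in SB431542+TGFb libraries and 0.11 to 0.27 FPKM in vehicle libraries, and Reln was listed at 0 in all. Lrat was not analysed here. Some mesothelial markers were present, with Upk3b at 256 to 312 FPKM in SB431542+TGFb libraries and 241 to 259 FPKM in vehicle libraries. Gpm6a went the other way (149 to 171 against 172 to 175 FPKM), and Wt1 was at 30.1 to 31.6 against 26.9 to 27.7 FPKM. Msln was at 4.59 to 5.95 against 4.65 to 6.18 FPKM, and Krt18 and Thy1 were at 0.19 FPKM or less in both groups. The summed mesothelial and portal fibroblast list was 709 to 806 FPKM against 767 to 799 FPKM, with 1 of 6 tested markers called (Fbln2, lower). The part of these markers in the results below was not tested. Fewer cells of a type and less RNA per cell cannot be told apart in such bulk libraries. Of the macrophage and leukocyte markers, Ptprc was listed at 0 in both groups, and Csf1r and Itgam were at 0.23 FPKM or less. Cd14 was at 5.9 to 6.94 FPKM in SB431542+TGFb libraries and 6.67 to 7.43 FPKM in vehicle libraries, and Cd68 at 1.62 to 2.37 and 1.04 to 1.8 FPKM. Their summed list was 8.45 to 9.28 FPKM against 8.56 to 8.67 FPKM. The summed hepatocyte list was 0.14 to 0.19 FPKM in SB431542+TGFb libraries and 0.10 to 0.25 FPKM in vehicle libraries.

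Cells given SB431542 and TGFb lay next to vehicle cells and slightly beyond them, away from TGFb. Each library was placed on a TGFb axis, the difference between CLK8+TGFb and CLK8 libraries over all 11297 genes, on which the vehicle mean is 0 and the TGFb mean is 1. CLK8 is a disruptor of the CLOCK:BMAL1 dimer, and these CLK8 libraries share no sample with the 4 groups. The SB431542+TGFb libraries stood at -0.0429, -0.0857 and -0.1146, against 0.0263, -0.0189 and -0.0075 for vehicle. All 3 inhibited libraries were below all 3 vehicle libraries, with means of -0.081 ± 0.036 in SB431542+TGFb and 0 ± 0.024 in vehicle (SD, n = 3 each, two-sided exact permutation p = 0.1, the smallest that 3 against 3 allows). The cells given SB431542 alone were further out, at -0.2521, -0.3103 and -0.3048, and the TGFb libraries lay between 0.987 and 1.0122. The root mean square log2 difference from pairs of vehicle libraries gave the same order of groups. It was 0.132, 0.139 and 0.137 for SB431542+TGFb, 0.198 ± 0.010 for SB431542 alone, 0.419 ± 0.011 for TGFb and 0.113, 0.103 and 0.091 for the vehicle libraries themselves (SB431542+TGFb against vehicle, exact permutation p = 0.1).

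**Figure D1:**
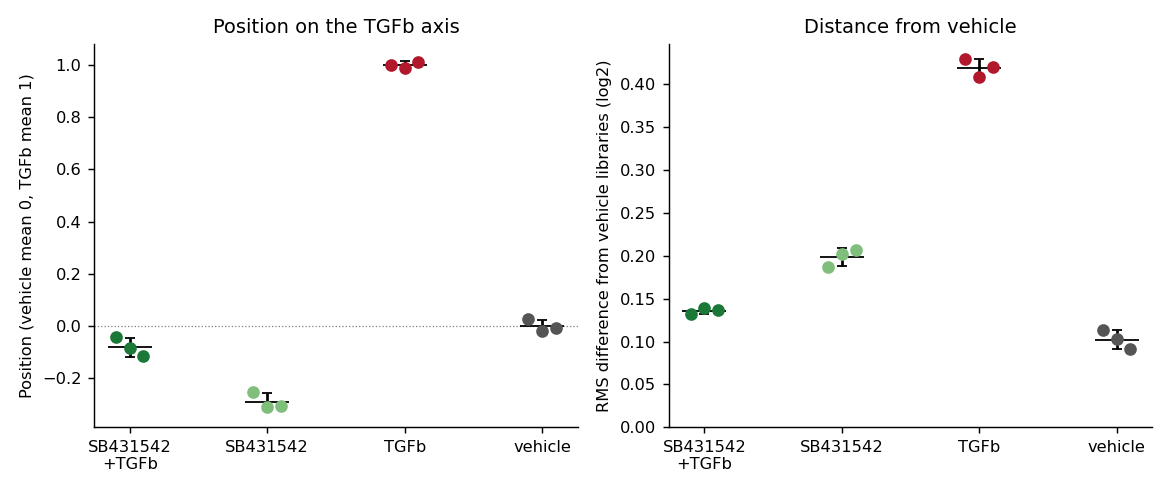
Position of each library on the TGFb axis (left, vehicle mean 0 and TGFb mean 1) and root mean square log2 difference from vehicle libraries (right), for SB431542+TGFb, SB431542, TGFb and vehicle; points are libraries, bars the mean and SD of 3. The SB431542+TGFb libraries lie at -0.0429 to -0.1146, between vehicle and SB431542 alone, and at 0.132 to 0.139 in distance against 0.091 to 0.113 for vehicle.

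The 16 genes with the largest called TGFb responses, 8 in each direction, show how complete the return was gene by gene. With the inhibitor present, 12 of the 16 were not called against vehicle, and their log2 differences lay between -0.21 and 0.26. Of the other 4, Pmepa1, Mfap4 and Anxa8 were lower than vehicle and Mmp3 was higher; Anxa8, a calcium-binding annexin (-0.25), was called in none of the 6 fits that leave out a library (-0.28 to -0.20). Ctsw, which encodes the cysteine protease cathepsin W, was at 0.17, 0.18 and 0.03 FPKM in SB431542+TGFb libraries and 37.0, 37.0 and 37.9 FPKM in TGFb libraries, against 0.12, 0.03 and 0.12 FPKM in vehicle libraries. Postn, the matrix protein periostin, was at 1.49, 1.15 and 1.16 FPKM in SB431542+TGFb libraries, 44.1, 39.9 and 39.8 FPKM in TGFb libraries and 1.38, 1.29 and 1.05 FPKM in vehicle libraries. For both genes the inhibited and vehicle libraries overlapped, and the log2 differences were 0.05 ± 0.08 for Ctsw, which overlaps Fibp in the annotation, and 0.02 ± 0.098 for Postn (SE, adjusted p = 0.856 and 0.968). Mmp2, a gelatinase, had 9.17, 8.87 and 8.35 FPKM in SB431542+TGFb libraries, 89.6, 91.1 and 93.6 FPKM in TGFb libraries and 9.78, 9.94 and 9.73 FPKM in vehicle libraries. The Mmp2 groups did not overlap, yet the difference of -0.14 from vehicle was not called (adjusted p = 0.193). SB431542 alone took Mmp2 lower, to 4.26, 3.99 and 3.89 FPKM.

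Genes that TGFb lowered also came back. Aqp1, a water channel, was at 29.2, 40.7 and 44.8 FPKM in SB431542+TGFb libraries and 1.49, 2.03 and 1.93 FPKM in TGFb libraries, against 29.0, 32.2 and 32.7 FPKM in vehicle libraries, and the inhibited libraries overlapped vehicle (log2 difference 0.26, adjusted p = 0.535). The BMP-SMAD targets Id1, Id2 and Id3, inhibitors of helix-loop-helix factors, had log2 differences of -1.5, -2.91 and -2.09 between TGFb alone and vehicle, all called. With SB431542 and TGFb together their differences from vehicle were -0.04, 0.15 and 0.07, none called. Id2 was at 48.3, 53.3 and 53.1 FPKM in SB431542+TGFb libraries and 5.61, 5.15 and 5.13 FPKM in TGFb libraries, against 45.1, 46.1 and 47.6 FPKM in vehicle libraries, so its inhibited libraries stood just above vehicle without a call. Over the 8 tested BMP-SMAD targets limma called 0 in SB431542+TGFb against vehicle, beside 3.5% of all genes, and 0 had an unadjusted p under 0.05 (median -0.014). TGFb alone raised 1 and lowered 7 (median -1.289), beside 20.5% and 34.4% of all genes.

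The fibrosis genes for which this pathway is best known were near the vehicle level. Acta2, the smooth muscle actin that marks myofibroblasts, was at 124, 112 and 101 FPKM in SB431542+TGFb libraries, 193, 199 and 174 FPKM in TGFb libraries and 102, 104 and 93.9 FPKM in vehicle libraries. Its inhibited libraries overlapped vehicle (0.16 ± 0.145, SE, adjusted p = 0.682), as did those of Tagln, another smooth muscle gene, which overlaps Pcsk7 (0.14, adjusted p = 0.794). Col1a1, the chain present in most scar collagen, was at 1514, 1450 and 1341 FPKM in SB431542+TGFb libraries, 2230, 2415 and 2617 FPKM in TGFb libraries and 1651, 1511 and 1561 FPKM in vehicle libraries (-0.13, adjusted p = 0.481). Col1a2 (-0.14), Col3a1 (0.08), the metalloprotease inhibitor Timp1 (-0.09) and the matricellular growth factor Ccn2 (-0.11) were not called either.

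**Figure D2:**
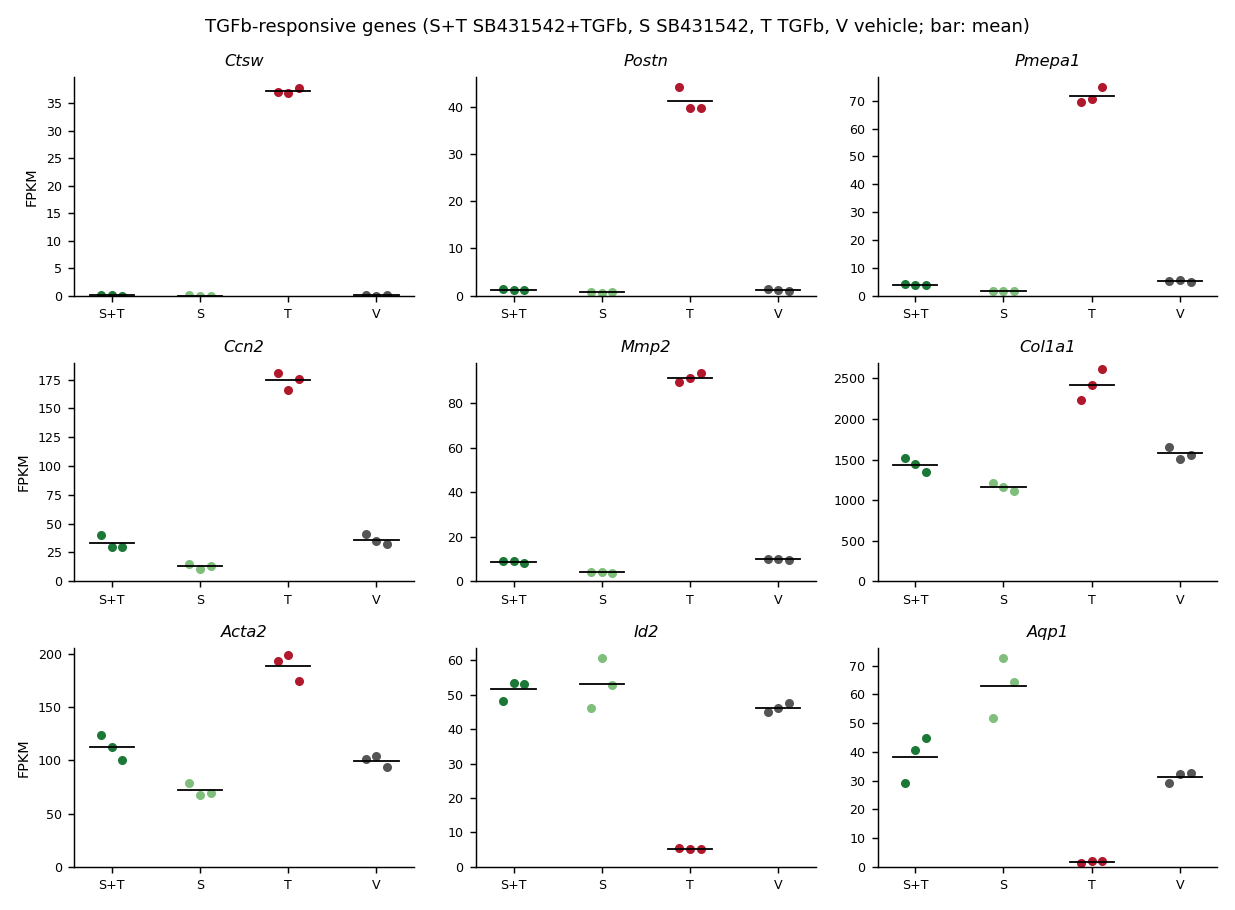
FPKM per library (vertical axes from 0) of 9 TGFb-responsive genes in SB431542+TGFb, SB431542, TGFb and vehicle libraries; points are libraries and bars are means. For each gene the SB431542+TGFb points sit near vehicle, for Postn at 1.15 to 1.49 against 1.05 to 1.38 FPKM, and far from TGFb; Pmepa1 is the one of the 9 called against vehicle.

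Some TGFb-raised genes stood below vehicle when the inhibitor and TGFb were given together. Pmepa1, a feedback inhibitor that binds SMAD2 and SMAD3, was at 4.34, 3.70 and 3.73 FPKM in SB431542+TGFb libraries, 69.6, 70.4 and 74.8 FPKM in TGFb libraries and 5.42, 5.5 and 4.8 FPKM in vehicle libraries. It fell by 0.34 on the log2 scale against vehicle (log2 difference -0.34 ± 0.063, SE, adjusted p = 0.00228), with all inhibited libraries under all vehicle libraries. In the absence of added TGFb the inhibitor took Pmepa1 down to 1.84, 1.67 and 1.83 FPKM, so the inhibited cells with TGFb stood above the inhibitor alone (log2 difference 0.82, adjusted p = 1.28e-08) and below vehicle. Ltbp1, which tethers latent TGFb to the matrix, was at 15.5, 13.1 and 12.5 FPKM in SB431542+TGFb libraries and 18.4, 18.7 and 18.2 FPKM in vehicle libraries (-0.40, adjusted p = 0.00147), against 10.3, 9.44 and 8.97 FPKM with SB431542 alone. Col8a2, a short-chain collagen, was at 4.88, 5.30 and 5.65 FPKM in SB431542+TGFb libraries and 71.9, 72.8 and 78.0 FPKM in TGFb libraries, against 8.05, 7.75 and 8.60 FPKM in vehicle libraries (-0.54, adjusted p = 0.000386). Col5a2, a fibrillar collagen (-0.29), the small proteoglycan Bgn (-0.33) and the elastic fibre protein Fbln5 (-0.28) fell as well, each with adjusted p under 0.001.

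Over a set of TGFb-responsive genes chosen in other libraries, the same near return was seen. The set holds the genes called and changed at least 2-fold in CLK8+TGFb against CLK8, 205 raised and 189 lowered. The CLK8 libraries do not enter the means compared with vehicle. They are part of the pooled spread behind the calls and intervals, so these are not independent of the choice of genes. For the 205 raised genes the median log2 difference was -0.067 in SB431542+TGFb against vehicle and 1.181 in TGFb against vehicle, and for the 189 lowered genes it was 0.135 and -1.238, beside 0.015 and -0.049 over all genes tested. A gene was counted as returned where the 95% interval of its difference from vehicle lay within 0.5 log2 (1.41-fold) of 0. This held for 182 of 205 raised genes (88.8%) and 141 of 189 lowered genes (74.6%), beside 97.2% of all genes tested. Of the raised genes 4 were called higher and 18 lower (8.78%) in SB431542+TGFb than in vehicle. Of the lowered genes 34 were called higher (18%) and 3 lower. Over all genes 2.88% were called higher and 0.62% lower. The sizes were small in both sets, none reaching 2-fold. The interval of a small called difference can lie within 0.5 log2 of 0, so a called gene can also count as returned. SB431542 alone lay further on the far side of vehicle, with medians of -0.333 for the raised and 0.346 for the lowered genes. Against SB431542 alone, SB431542+TGFb had medians of 0.259 (99 genes higher, 0 lower) and -0.249 (0 higher, 68 lower), beside 2.01% higher and 2.35% lower over all genes. Part of both sets thus differed from SB431542 alone in the direction of the TGFb response. These values share libraries with the comparison against vehicle, which is their sum with SB431542 against vehicle.

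Across all genes, 395 of 11297 (3.5%) differed between SB431542+TGFb and vehicle at an adjusted p under 0.05 (limma, Benjamini-Hochberg), with 325 higher (2.88%) and 70 lower (0.62%). Of the 395 calls 74 lie on genes that overlap another gene, where unstranded reads could not be told apart, and 5 have no usable name. None reached 2-fold, 8 reached 1.5-fold, all higher, and the largest was 1.82-fold. The absolute log2 differences of the called genes ran from 0.14 to 0.86 with a median of 0.29. In the same fit TGFb against vehicle called 2311 genes higher (20.5%) and 3888 lower (34.4%), and SB431542 alone called 1339 higher (11.9%) and 571 lower (5.05%). For 394 of the 395 called genes the 3 libraries of one group all lay on one side of the other 3, which was the case for 26.0% of all genes tested. The balance of directions depended on the scaling: quantile normalization gave 232 higher and 105 lower, and conversion to TPM 424 higher and 39 lower. With 3 libraries a group the number called rested on having all of them. It was 149 higher and 31 lower without SB431542+TGFb replicate 2, and 152 and 32 without vehicle replicate 1. It was 183 and 44 without SB431542+TGFb replicate 3, 183 and 36 without vehicle replicate 3, 199 and 41 without vehicle replicate 2, and 250 and 49 without SB431542+TGFb replicate 1.

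**Figure D3:**
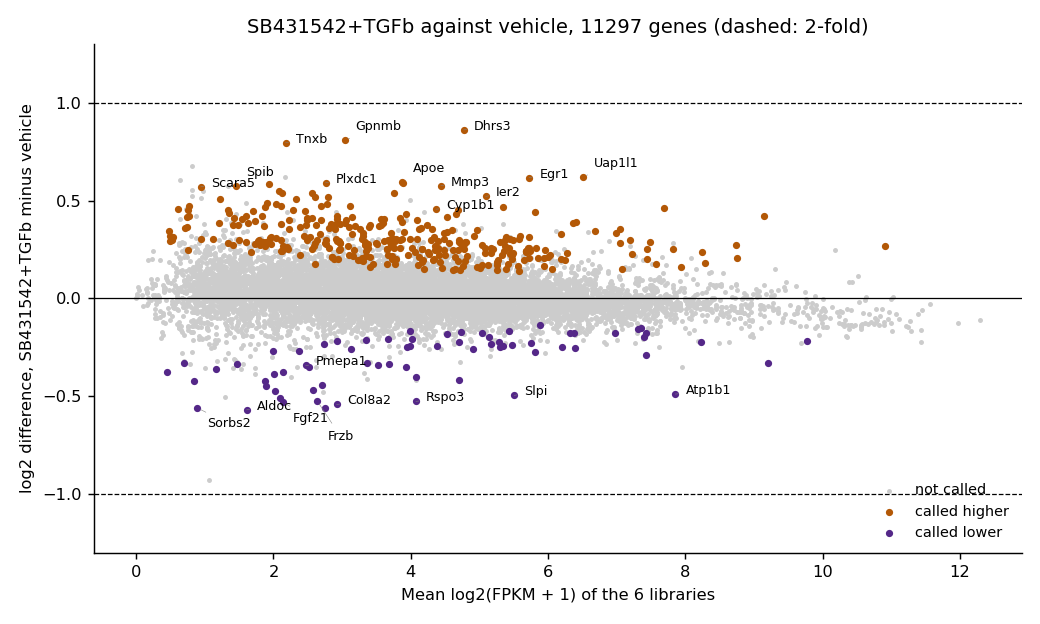
Difference between SB431542+TGFb and vehicle on the log2(FPKM + 1) scale (vertical axis) against the mean log2(FPKM + 1) of the 6 libraries (horizontal axis) for the 11297 genes tested; coloured points are the 325 genes called higher and the 70 called lower, and dashed lines mark 2-fold. No called gene reaches the dashed lines, the outermost being Dhrs3 at 0.86 and Aldoc at -0.57.

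The 12 largest rises were Dhrs3, Gpnmb, Tnxb, Uap1l1, Egr1, Apoe, Plxdc1, Klf2, Dtx4, Mmp3, Scara5 and Spib, between 1.48-fold and 1.82-fold. Dhrs3, which reduces retinaldehyde to retinol (gene at GRCm38 chromosome 4, 144892827 to 144928209, plus strand), was at 32.2, 36.6 and 38.9 FPKM in SB431542+TGFb libraries and 17.3, 19.7 and 21.0 FPKM in vehicle libraries. The groups were well apart, and the log2 difference was 0.86 ± 0.119 (SE, adjusted p = 0.000217). With SB431542 alone Dhrs3 was at 35.5, 44.8 and 41.2 FPKM and with TGFb alone at 8.25, 9.29 and 8.05 FPKM. Gpnmb, a lysosomal and melanosomal membrane glycoprotein (chromosome 6, 49036546 to 49070929, plus strand), was at 10.9, 8.69 and 10.3 FPKM in SB431542+TGFb libraries, 13.5, 11.9 and 14.3 FPKM with SB431542 alone, 0.70, 0.76 and 0.81 FPKM with TGFb alone and 5.15, 5.90 and 4.70 FPKM in vehicle libraries (0.81 ± 0.108, adjusted p = 0.000171). Tnxb, the matrix protein tenascin X (chromosome 17, 34670535 to 34719815, plus strand), had the smallest adjusted p of the 12. It was at 4.47, 5.05 and 5.39 FPKM in SB431542+TGFb libraries, 6.91, 7.13 and 7.12 FPKM with SB431542 alone, 0.12, 0.10 and 0.10 FPKM with TGFb alone and 2.21, 2.40 and 2.70 FPKM in vehicle libraries (0.80 ± 0.070, adjusted p = 9.92e-07). In these 3 genes the inhibited cells stood above vehicle on the side opposite to TGFb.

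Apoe, the lipid carrier apolipoprotein E, was at 17.2, 15.8 and 18.4 FPKM in SB431542+TGFb libraries and 12.4, 9.7 and 11 FPKM in vehicle libraries (0.60, adjusted p = 0.00354). Uap1l1, a relative of a nucleotide sugar pyrophosphorylase, was at 112, 110 and 115 FPKM in SB431542+TGFb libraries and 73.4, 71.5 and 72.8 FPKM in vehicle libraries (0.62, adjusted p = 3.67e-05). Mmp3, the metalloprotease stromelysin 1, was at 25.5, 23.8 and 27.2 FPKM in SB431542+TGFb libraries, 40.3, 37.8 and 40.5 FPKM with SB431542 alone, 0.53, 0.36 and 0.27 FPKM with TGFb alone and 15.7, 18.7 and 16 FPKM in vehicle libraries (0.58, adjusted p = 0.0183). Its call ended without replicate 1 or 3 of SB431542+TGFb or of vehicle, with 0.53 to 0.65 over the 6 fits that leave out a library. Leaving Egr1 aside, the other 11 of the 12 had differences from vehicle of 0.53 to 1.23 with SB431542 alone and -3.68 to -0.58 with TGFb alone. Their differences between SB431542+TGFb and SB431542 alone ran from -0.61 to 0.06.

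The promoters of 2 of these genes hold the AP-1 element TGANTCA, the site of FOS and JUN dimers, before the start site, and Mmp3 is a textbook AP-1 target, which is why these 2 stretches are shown. RefSeq promoters (GRCm38.p6, 250 bases before to 50 after a start) were at hand for 7 of the 12 genes, and 3 of the 7 held the element on either strand (Gpnmb, Mmp3 and Tnxb), as did 8.97% of 27025 symbols in the table. The element of Gpnmb lies after the start and is not shown. The stretches end before the start site, with the element in capitals, at chr9:7445749-7445808 and chr17:34670453-34670512, both on the plus strand.
Mmp3: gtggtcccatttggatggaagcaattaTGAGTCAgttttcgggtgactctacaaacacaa
Tnxb: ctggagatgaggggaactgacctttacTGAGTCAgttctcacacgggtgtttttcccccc
The palindromic SMAD box GTCTAGAC, the CAGA box CAGACA read by SMAD3, the aryl hydrocarbon receptor element TNGCGTG and the E-box CACGTG were in 0 of the 7 windows. Of the 12 largest falls 10 had a promoter window, and CAGACA was in 3 of these (Fgf21, Npy4r and Sorbs2), beside 23.6% of all symbols. GTCTAGAC was in 0 of the 10, beside 0.248% of all symbols, TNGCGTG in 1 (Kcnk2, beside 5.84%), CACGTG in 2 (Fgf21 and Slpi, beside 8.09%) and TGANTCA in 1 (Kcnk2). A match is a run of letters and not a measured binding site.

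The 12 largest falls were Aldoc, Kcnk2, Sorbs2, Col8a2, Rspo3, Fgf21, Frzb, Serpinb6b, Slpi, Atp1b1, Trabd2b and Npy4r, with log2 differences of -0.57 to -0.47. Aldoc, the aldolase C of glycolysis, was at 1.08, 1.69 and 1.80 FPKM in SB431542+TGFb libraries, 1.44, 2.30 and 1.79 FPKM with SB431542 alone, 1.29, 1.49 and 1.31 FPKM with TGFb alone and 2.51, 2.84 and 2.80 FPKM in vehicle libraries (-0.57 ± 0.099, SE, adjusted p = 0.00126). All 3 treated groups were thus below vehicle. Atp1b1, a subunit of the sodium pump, was at 195, 195 and 193 FPKM in SB431542+TGFb libraries, 118, 129 and 122 FPKM with SB431542 alone, 354, 357 and 356 FPKM with TGFb alone and 282, 267 and 271 FPKM in vehicle libraries (-0.49 ± 0.068, adjusted p = 0.000176). Atp1b1 overlaps Nme7 in the annotation, and reads from the 2 genes may not be told apart. Fgf21, a stress-induced hormone, was at 2.28, 2.58 and 3.14 FPKM in SB431542+TGFb libraries, 1.60, 1.31 and 1.46 FPKM with SB431542 alone, 36.1, 44.1 and 40.1 FPKM with TGFb alone and 4.06, 4.58 and 4.18 FPKM in vehicle libraries (-0.53 ± 0.095, adjusted p = 0.00176). Inhibited cells therefore stood between SB431542 alone and vehicle for Atp1b1 and Fgf21.

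Rspo3 and Frzb both act on Wnt signalling outside the cell, Rspo3 as an enhancer and Frzb as a secreted Wnt binder. Rspo3 was at 13.3, 13.0 and 12.8 FPKM in SB431542+TGFb libraries and 20.6, 19.0 and 18.1 FPKM in vehicle libraries (-0.53 ± 0.072, adjusted p = 0.000173), while TGFb alone differed from vehicle by -0.12 (adjusted p = 0.166). Frzb was at 3.97, 3.95 and 4.67 FPKM in SB431542+TGFb libraries and 6.70, 6.29 and 6.38 FPKM in vehicle libraries (-0.52 ± 0.091, adjusted p = 0.00125). Kcnk2, a potassium channel, had -0.56, and Sorbs2, a cytoskeletal adaptor, had -0.56 at 0.48 to 0.59 FPKM in SB431542+TGFb libraries. Slpi, a secreted protease inhibitor, had -0.50 (adjusted p = 0.0298). The Slpi call ended without any 1 library other than vehicle replicate 1, with -0.57 to -0.43 over the 6 fits. With SB431542 alone the 12 falls had differences of -1.15 to -0.14 from vehicle, and with TGFb alone they ran from -1.15 to 3.04, with 5 raised and 5 lowered.

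**Figure D4:**
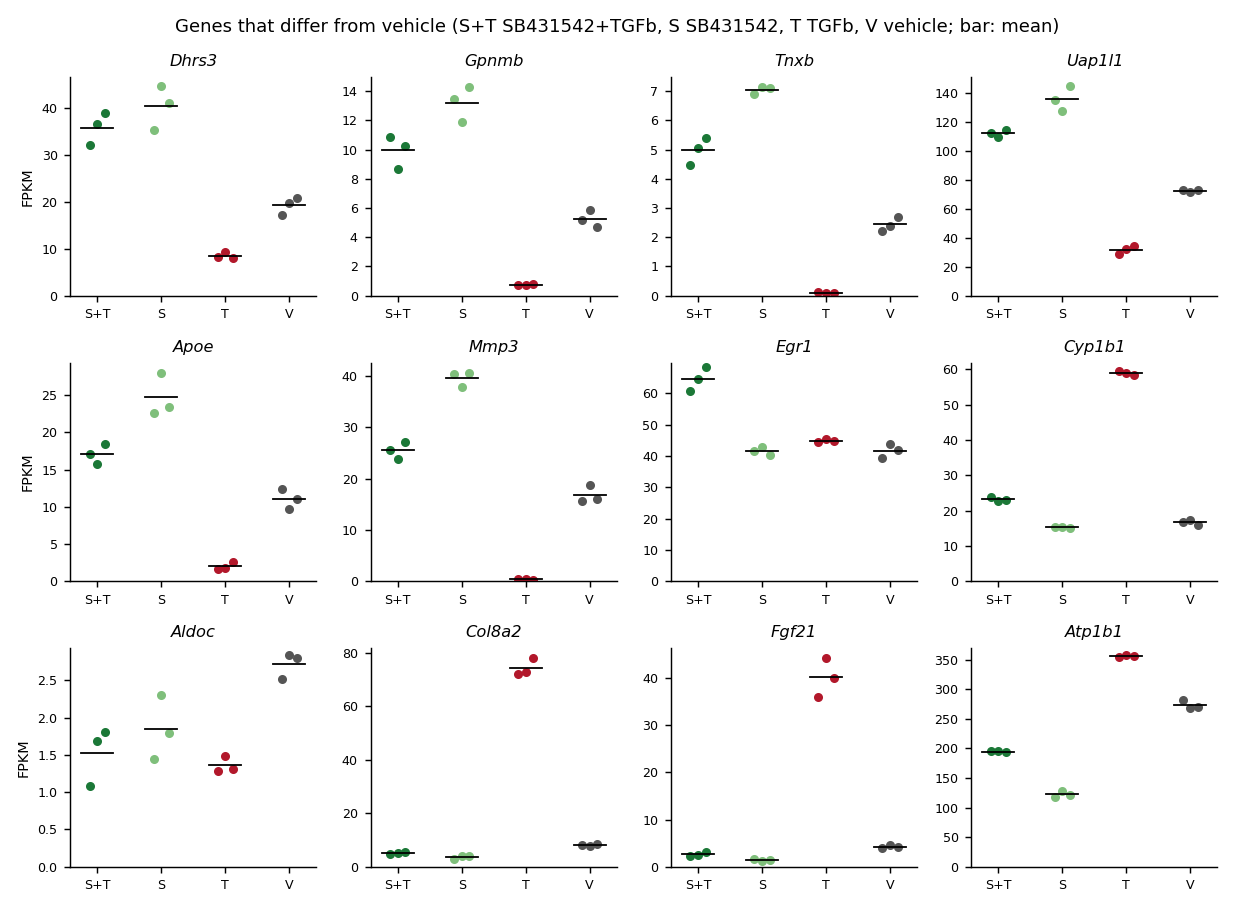
FPKM per library (vertical axes from 0) of 12 genes called between SB431542+TGFb and vehicle, with SB431542 and TGFb libraries beside them; points are libraries and bars are means. Dhrs3, Gpnmb, Tnxb, Uap1l1, Apoe and Mmp3 are above vehicle in the inhibited cells and below it with TGFb, Egr1 stands at 60.8 to 68.4 FPKM in SB431542+TGFb libraries against 39.4 to 44.0 FPKM in vehicle libraries, and Atp1b1 lies between SB431542 alone and vehicle.

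Some immediate early genes, the first to respond to growth signals, were higher in cells given SB431542 with TGFb than in both vehicle cells and cells given SB431542 alone. Egr1, a zinc finger factor induced within minutes by growth signals, was at 60.8, 64.6 and 68.4 FPKM in SB431542+TGFb libraries, 41.7, 42.9 and 40.3 FPKM with SB431542 alone, 44.4, 45.5 and 45.0 FPKM with TGFb alone and 39.4, 44.0 and 41.9 FPKM in vehicle libraries. The inhibited libraries with TGFb were above all 9 others, and Egr1 rose against vehicle by 0.62 ± 0.071 (SE, adjusted p = 3.67e-05) and against SB431542 alone by 0.62 (adjusted p = 7.4e-06). Fos, the AP-1 subunit, was at 5.48, 6.68 and 7.98 FPKM in SB431542+TGFb libraries and 4.47, 4.51 and 4.53 FPKM in vehicle libraries (0.47, adjusted p = 0.00171), against 4.30, 4.50 and 4.04 FPKM with SB431542 alone and 3.90, 3.75 and 3.69 FPKM with TGFb alone. Ier2 rose by 0.52 (adjusted p = 0.000176) and was also raised by TGFb alone (0.76), at 39.0, 39.3 and 41.3 FPKM in SB431542+TGFb libraries and 26.0, 28.4 and 28.0 FPKM in vehicle libraries. Klf2, a factor known for its flow response in endothelium, rose by 0.59 (adjusted p = 0.000642), but here SB431542 alone gave 0.53. Of 18 tested immediate early genes 5 were called higher and 0 lower (median 0.166), beside 2.88% and 0.62% of all genes. The fifth, Ier3 (0.32, adjusted p = 0.0477), was called in none of the 6 fits that leave out a library (0.24 to 0.37). In SB431542 alone against vehicle the same list had 2 higher and 2 lower (median -0.003), beside 11.9% and 5.05% of all genes.

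Cyp1b1, a cytochrome P450 that the aryl hydrocarbon receptor induces, was also higher in SB431542+TGFb than in vehicle and SB431542 alone. Unlike Egr1 and Fos, it was highest with TGFb alone. It was at 24.0, 22.6 and 23.0 FPKM in SB431542+TGFb libraries, 15.2, 15.3 and 15.2 FPKM with SB431542 alone, 59.7, 58.8 and 58.3 FPKM with TGFb alone and 16.8, 17.3 and 15.9 FPKM in vehicle libraries. The difference was 0.46 ± 0.054 from vehicle (SE, adjusted p = 4.83e-05) and 0.57 from SB431542 alone (adjusted p = 4.28e-07), so Cyp1b1 stood between vehicle and TGFb, where it was raised by 1.76. Aldh3a1, an aldehyde dehydrogenase on the same receptor's target list, went the other way under TGFb, at 3.78, 3.81 and 4.78 FPKM in SB431542+TGFb libraries, 5.63, 7.5 and 6.78 FPKM with SB431542 alone, 0.56, 0.39 and 0.45 FPKM with TGFb alone and 2.43, 2.66 and 2.95 FPKM in vehicle libraries (0.47, adjusted p = 0.0242). Of 7 tested targets 3 were called higher and 0 lower (median 0.200), beside 2.88% and 0.62% of all genes. The third was Tiparp (0.22, adjusted p = 0.0274). The count was 1 without SB431542+TGFb replicate 2 or 3 or without vehicle replicate 1 or 2, and 2 without vehicle replicate 3, with 0.38 to 0.53 for Aldh3a1 and 0.19 to 0.27 for Tiparp over the 6 fits, while Cyp1b1 was called in all of them.

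By number, though not by median, lysosome and autophagy genes stood out as the list with the most calls. The lists differ in size, and 3 of 7 aryl hydrocarbon receptor targets were called, an equal share with a larger median (0.2). The lysosome and autophagy counts were as follows. Of 21 tested, 9 were higher in SB431542+TGFb than in vehicle and 0 lower (median 0.135, beside 0.015 over all genes). Over all genes tested 2.88% were called higher and 0.62% lower. TGFb alone lowered 19 of the 21 (median -0.472), beside 34.4% of all genes. SB431542 alone raised 17 (median 0.300), beside 11.9% of all genes. Among the 9 were Gpnmb, Neu1, Mcoln1, Hexa, Lamp1, Ctsa, Ctsb and Map1lc3b. Mcoln1, the lysosomal calcium channel, was at 33.9, 34.0 and 35.3 FPKM in SB431542+TGFb libraries and 27.2, 25.8 and 27.5 FPKM in vehicle libraries (0.35 ± 0.047, SE, adjusted p = 0.000173). Hexa, a hexosaminidase subunit, was at 79.3, 80.1 and 83.7 FPKM in SB431542+TGFb libraries and 61.0, 65.8 and 65.9 FPKM in vehicle libraries (0.33, adjusted p = 0.000463). Neu1, a sialidase, had 0.37 and Lamp1, a membrane protein of the lysosome, had 0.24. These are small rises with groups that did not overlap. Leaving out a library left 6 or 7 of the list called: Ctsb (0.17 to 0.23) and Map1lc3b (0.19 to 0.21) were called in none of these fits, and Ctsa (0.20 to 0.25) was not called without SB431542+TGFb replicate 1, vehicle replicate 1 or vehicle replicate 3. Ctsa, Ctsb, Hexa, Lamp1 and Map1lc3b overlap another gene in the annotation.

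The E-box CACGTG, the core of the site that the lysosomal regulator TFEB reads, was searched in the promoters of this list after its values were known. It stood in 3 of the 7 called genes with a RefSeq promoter (Ctsa, Lamp1 and Mcoln1) and in 2 of the 8 uncalled genes with one (Ctsd and Ctsl), beside 8.09% of all symbols. For the 3 called genes, 60 bases before the start site are shown, with 1 copy in Ctsa, 2 in Mcoln1 and 3 in Lamp1. They lie at chr2:164833713-164833772, chr8:3500447-3500506 and chr8:13159101-13159160, all on the plus strand, with the motif in capitals.
Ctsa: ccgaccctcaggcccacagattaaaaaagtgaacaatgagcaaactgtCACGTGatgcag
Mcoln1: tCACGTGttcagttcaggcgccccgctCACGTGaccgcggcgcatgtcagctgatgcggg
Lamp1: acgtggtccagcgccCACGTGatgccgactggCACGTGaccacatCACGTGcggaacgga

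The matrix lists split by gene. Over all genes tested 2.88% were called higher and 0.62% lower in SB431542+TGFb than in vehicle. With TGFb alone these shares were 20.5% and 34.4%. Of 18 tested collagens 0 were higher and 3 lower in SB431542+TGFb than in vehicle (Col8a2, Col5a2 and Col4a2, median -0.129), against 14 higher and 4 lower with TGFb alone (median 0.605). Col4a2, a basement membrane chain that overlaps Col4a1 in the annotation, had -0.17 (adjusted p = 0.0168) and was not called without SB431542+TGFb replicate 1, vehicle replicate 1 or vehicle replicate 3 (-0.19 to -0.15 over the 6 fits). Of 23 other matrix proteins 2 were higher and 4 lower (median -0.008). Tnxb was one of the 2 that rose, and the other, Prelp, a leucine-rich repeat proteoglycan, had 0.52 (adjusted p = 0.0291), a call that ended without vehicle replicate 1 or SB431542+TGFb replicate 2 or 3 (0.38 to 0.63). The falls were Mfap4, Bgn, Fbln5 and Fbln2, with Fbln2 at -0.22 (adjusted p = 0.0242). The Fbln2 call ended without any 1 library other than SB431542+TGFb replicate 2 (-0.25 to -0.19 over the 6 fits), and in TPM (-0.20) and after quantile normalization (-0.19). Mfap4, which overlaps Mapk7, at 0.17 to 0.22 FPKM in SB431542+TGFb libraries and 0.40 to 0.68 FPKM in vehicle libraries, was not called without vehicle replicate 1 or 2 or SB431542+TGFb replicate 2 (-0.45 to -0.32). Of 29 proteases, inhibitors and crosslinkers 4 were higher and 0 lower (median -0.033): Mmp3, Mmp13, the membrane-anchored protease Mmp14 (0.30, adjusted p = 0.000173) and the plasminogen activator Plat (0.24, adjusted p = 0.00523). Mmp14 was at 157, 162 and 163 FPKM in SB431542+TGFb libraries, 157, 164 and 169 FPKM with SB431542 alone, 201, 196 and 210 FPKM with TGFb alone and 127, 134 and 131 FPKM in vehicle libraries, so every treated group was above vehicle. Mmp13, a collagenase, had 0.40 and was called in none of the 6 fits that leave out a library (0.36 to 0.44).

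In the pathway itself few genes were called against vehicle. Over all genes tested 2.88% were called higher and 0.62% lower in SB431542+TGFb than in vehicle. These shares were 20.5% and 34.4% with TGFb alone, and 11.9% and 5.05% with SB431542 alone. Of 24 tested TGFb-SMAD targets and feedback genes 0 were higher and 2 lower in SB431542+TGFb (Pmepa1 and Ldlrad4, median -0.029), against 20 higher and 1 lower with TGFb alone and 2 higher and 13 lower with SB431542 alone. Ldlrad4, like Pmepa1 a SMAD feedback inhibitor, overlaps Fam210a in the annotation. It was at 0.92, 0.85 and 1.17 FPKM in SB431542+TGFb libraries, 0.29, 0.31 and 0.31 FPKM with SB431542 alone and 1.59, 1.46 and 1.55 FPKM in vehicle libraries (-0.36, adjusted p = 0.012), and was not called without vehicle replicate 1 or SB431542+TGFb replicate 2 (-0.43 to -0.31). The inhibitory SMAD gene Smad7 (-0.10) and the corepressor gene Skil (-0.26, adjusted p = 0.119) were not called. Of 22 ligands, receptors and SMADs 1 was lower, Ltbp1. The unadjusted limma p was under 0.05 for 8 of the 24 targets and feedback genes (2 higher, 6 lower). It was so for 9 of the 22 (4 higher, 5 lower), beside 1728 of all 11297 genes. In the fit of SB431542+TGFb and vehicle alone, 4 of the 24 were called lower and 0 higher. Of the 22, that fit called 1 higher and 1 lower. The receptor genes Tgfbr1 (0.05), Tgfbr2 (0.09) and Acvr1b, which encodes ALK4 (0.12), were not called, nor was the ligand gene Tgfb1 (-0.11). Of 19 contractile and adhesion genes 1 was lower, the collagen receptor subunit Itga11 (-0.27, adjusted p = 0.0447), against 15 higher and 1 lower with TGFb alone. Its call ended without any 1 library other than vehicle replicate 2 (-0.33 to -0.23).

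In stress, metabolic and growth lists few genes were called against vehicle. Over all genes tested 2.88% were called higher and 0.62% lower in SB431542+TGFb than in vehicle. TGFb alone raised 20.5% and lowered 34.4%. Of 23 genes of the integrated stress response, which TGFb alone raised in 17 cases and lowered in 1, 2 were lower in SB431542+TGFb (Fgf21 and Aldh1l2, median -0.079), and Aldh1l2 (-0.26) was called in none of the 6 fits that leave out a library (-0.29 to -0.22). The number called by limma was 0 among 29 proliferation genes (median -0.013), 26 interferon response genes (median 0.064), 23 genes of cholesterol synthesis and uptake (median -0.079) and 13 YAP-TEAD targets (median 0.051). An unadjusted p under 0.05 was seen for 0 of the proliferation genes, 2 of the interferon genes, 2 of the cholesterol genes and 3 of the YAP-TEAD targets. Some alternatives made calls: of the YAP-TEAD targets 2 were higher with the replicate block, 3 were higher in the fit of SB431542+TGFb and vehicle alone, 1 was higher in TPM and 1 was lower with a pseudocount of 0.1 FPKM. Of the cholesterol genes 2 were lower in the fit of those groups alone, and 1 interferon gene was higher in TPM. The interferon median turned on single libraries, with 2 genes higher and a median of 0.191 without vehicle replicate 2, and a median of -0.013 without vehicle replicate 1 or 3. TGFb alone lowered 19 of the 29 proliferation genes and 21 of the 26 interferon genes, beside 34.4% of all genes tested. That share depends on the scaling, with 3888 genes lowered in the main fit and 2885 in TPM. Of 8 genes of cholesterol efflux 2 were higher, Apoe and the sterol exporter Abca1 (0.36, adjusted p = 0.0159), and Abca1 was called only without SB431542+TGFb replicate 1 among the 6 fits (0.33 to 0.38). Of 19 antioxidant targets of NRF2 2 were higher, the haem oxygenase Hmox1 (0.34, adjusted p = 0.0106) and the ferritin chain Ftl1 (0.27, adjusted p = 0.0263). Hmox1 was not called without vehicle replicate 1 or SB431542+TGFb replicate 2 (0.28 to 0.40), and Ftl1 was called only without vehicle replicate 2 (0.23 to 0.32). The 95% interval lay within 0.5 log2 of 0 for 20 of 23 stress response, 28 of 29 proliferation and 23 of 23 cholesterol genes. It did so for 20 of 26 interferon genes, 9 of 13 YAP-TEAD targets, 6 of 8 efflux genes and 18 of 19 NRF2 targets. Over all genes tested the share was 97.2%.

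Of 18 clock genes 2 were called higher and 0 lower (median 0.129). Over all genes tested the shares were 2.88% and 0.62%, which also stand beside the lists that follow. Nr1d1, which encodes REVERBalpha and overlaps Thra, was among the 2 clock genes (0.30, adjusted p = 0.0447). The Nr1d1 call did not hold under quantile normalization (0.25), without the filter or in the fit of SB431542+TGFb and vehicle alone. Quantile normalization gave 0 higher and 1 lower of the clock list. Over the 6 fits that leave out a library 0 or 1 of the list was called higher (Nr1d1 0.20 to 0.37). Arntl, the gene of BMAL1, was at 5.45, 5.83 and 5.77 FPKM in SB431542+TGFb libraries and 11.5, 11.3 and 10.8 FPKM with TGFb alone, against 6.41, 6.36 and 6.13 FPKM in vehicle libraries (-0.13, adjusted p = 0.209). Among 19 inflammatory genes the chemokines Cxcl13 (0.42) and Cxcl5 (-0.45) were called. Cxcl13 was at 0.63, 1.1 and 1.09 FPKM in SB431542+TGFb libraries and 0.55, 0.52 and 0.28 FPKM in vehicle libraries and was not called without SB431542+TGFb replicate 2 or vehicle replicate 3 (0.33 to 0.54). Cxcl5 was at 2.08, 2.35 and 2.14 FPKM in SB431542+TGFb libraries and 2.75, 3.82 and 3.56 FPKM in vehicle libraries. Of 21 IGF axis and growth factor genes 2 were higher, Igf2r (0.27, adjusted p = 0.000877), which carries enzymes to the lysosome, and Pdgfrb (0.29, adjusted p = 0.0101), a call that ended without vehicle replicate 2 (0.25 to 0.33). Of 16 p53 targets Sesn1 was higher (0.30), not called without vehicle replicate 1 or 2 or SB431542+TGFb replicate 2 or 3 (0.25 to 0.37), and of 17 glycolysis genes Aldoc alone was lower (median -0.124).

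**Figure D5:**
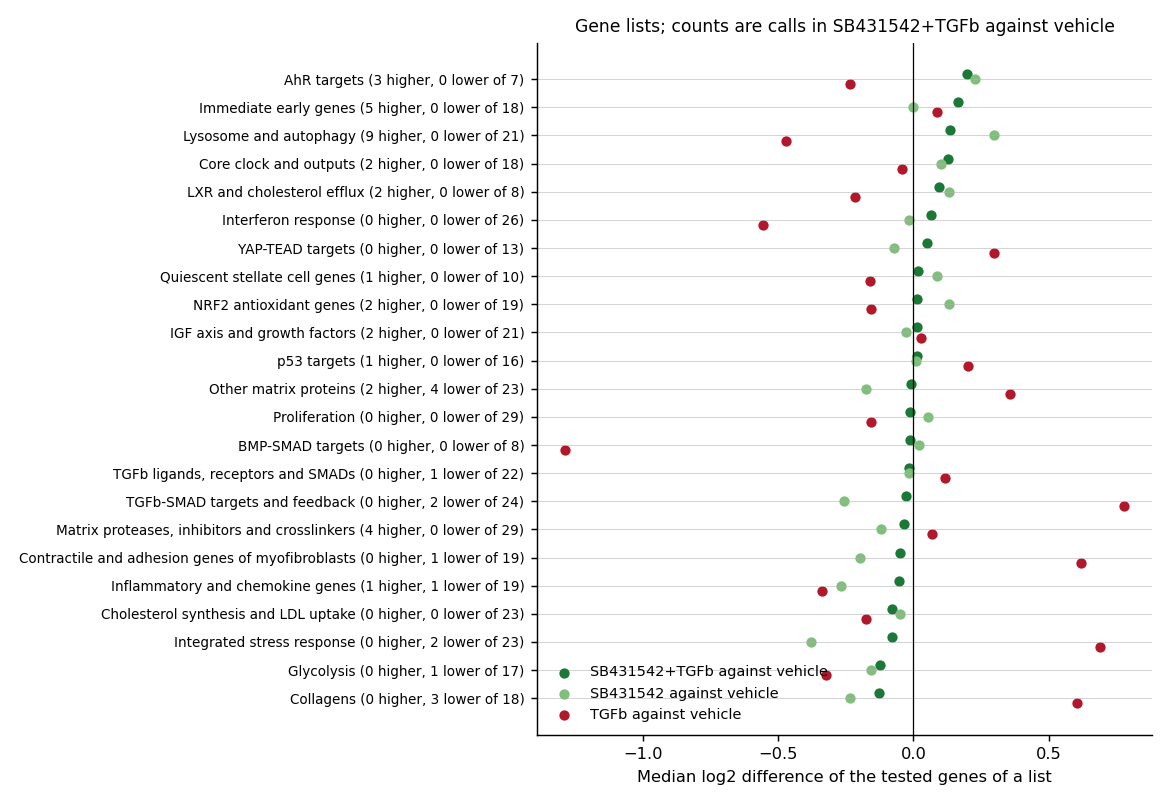
Median log2 difference of the tested genes of 23 lists (horizontal axis), for SB431542+TGFb, SB431542 and TGFb, each against vehicle; the row labels give the genes called higher and lower in SB431542+TGFb against vehicle. The SB431542+TGFb medians lie between -0.129 (collagens) and 0.200 (aryl hydrocarbon receptor targets), and the TGFb medians between -1.289 (BMP-SMAD targets) and 0.781 (TGFb-SMAD targets).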

How the data were processed

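RNA was sequenced from 24 libraries of EMS404 cells in 8 groups of 3. The submitters' processing notes name HISAT2 2.0.4, Bowtie2 2.2.5, RSEM, DESeq2 and the build mm10. The FPKM values (fragments scaled by transcript length and library size) were used as deposited by the authors. The labels' protocols name 2 RNA kits, chosen by amount; the kit used for a sample, the read totals and the strand setting were not found in the sources. Of 16620 lines, 16 lines of 8 repeated identifiers were left out, which left 16604 genes, 57 of them 0 in all libraries. Symbols and GRCm38 positions came from GENCODE M21, with 43 identifiers unmatched.

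Genes with at least 1 FPKM in at least 3 of 24 libraries entered limma 3.58.1 in R 4.3.3 as log2(FPKM + 1). A single model held the 8 groups and left 16 residual degrees of freedom; moderation was trended and robust, and tests were two-sided (Benjamini-Hochberg over 11297 genes, threshold 0.05). The pseudocount of 1 FPKM makes the fold of a low gene too small. The median standard error was 0.064, and 0.05 with only the 2 compared groups in the model. Distances were taken to pairs of vehicle libraries for every library, in place of the mean of all, so that vehicle and other libraries were measured alike. Motifs were searched on both strands of RefSeq promoters. Tables and plots used Python 3.11.15, numpy 2.4.6, pandas 2.3.3 and matplotlib 3.10.9.

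The members and the 23 gene lists were chosen with earlier results of these data known. Named were the 12 largest called rises and falls whose groups did not overlap, the 8 largest TGFb rises and falls, up to 3 members a list with the smallest adjusted p, and set genes such as Acta2, 116 in all, with clone or predicted names counted and not named. A further 29 genes were chosen after their values were seen, of which Fos, Ier3, Lamp1, Ctsa, Ctsb, Neu1, Hexa, Map1lc3b, Prelp, Mmp13, Mt1, Mt2, Rdh10, Atp6v0b, Wnt4, Axin2, Twist1 and Hsdl2 are given. Alternatives were other pseudocounts, filters, TPM, quantile normalization, no trend, only the 2 groups in the model, a replicate block, other responsive sets and axes, and leaving out each library. A few list members are left out of the text and not reported here.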

Additional observations from a re-analysis of the deposited data

How the results depend on the processing

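Of the 54 called genes named by the rule, 34 stayed called under every alternative, 12 lost the call under an alternative that kept all libraries, 19 when 1 library was left out, and 0 changed sign. The count of genes higher in SB431542+TGFb than in vehicle, 325, ran from 149 to 250 when 1 library was left out, and the count lower, 70, from 31 to 49; 44.3% to 64.6% of the 395 calls were kept, 0 with the opposite sign. The count lower was 39 in TPM and 119 in the fit of the compared groups alone, where 383 were higher. With the replicate block 367 genes were higher and 88 lower, and 390 of the 395 calls were kept. Same-numbered libraries of the 2 groups had residual correlations of 0.269, 0.092 and 0.128, not all over 0.1, so the numbers were not taken as pairs, although 2 of the 3 SB431542+TGFb libraries correlated best with the vehicle library of their own number, and a shared batch is not shown to be absent. A pseudocount of 0.1 FPKM gave 3 genes higher and 2 lower by at least 2-fold, against 0 and 0. The median of the TGFb-raised genes, -0.067, was -0.083 with a filter of 5 FPKM, -0.035 in TPM, -0.084 after quantile normalization, -0.049 for genes chosen in SR9011 libraries and -0.134 for those changed at least 4-fold, and -0.066 to -0.056 without 1 library. The median of the TGFb-lowered genes, 0.135, was 0.231 for those changed at least 4-fold. The position on the TGFb axis, -0.081, ran from -0.1 to -0.064 over its alternatives. The cause of these shifts was not tested, apart from the fewer libraries. No difference under 0.14 log2 was called at this number of libraries. The read depth, the kit used and the second day of culture could not be examined, and a low gene's fold is too small on the log2(FPKM + 1) scale.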

Other observations

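Several gene groups that no list held were looked at after their values were seen, and they are given as values. Besides Dhrs3, the retinol dehydrogenase Rdh10 rose, at 8.27, 8.31 and 9.04 FPKM in SB431542+TGFb libraries, 13.1, 13.4 and 14.4 FPKM with SB431542 alone, 3.77, 3.85 and 3.75 FPKM with TGFb alone and 6.63, 6.11 and 5.95 FPKM in vehicle libraries (0.40 ± 0.069, SE, adjusted p = 0.00125). Of 15 tested genes of retinoid metabolism and signalling 3 were higher and 0 lower (median 0.042, beside 0.015 over all genes). Subunits of the V-ATPase, the proton pump that acidifies lysosomes, had 7 higher and 0 lower of 20 tested (median 0.12), beside 2.88% higher and 0.62% lower over all genes. SB431542 alone had 16 higher and 0 lower of the 20, beside 11.9% and 5.05% over all genes, and TGFb alone had 0 higher and 15 lower, beside 20.5% and 34.4%. Atp6v0b was at 147, 144 and 144 FPKM in SB431542+TGFb libraries and 120, 120 and 117 FPKM in vehicle libraries (0.28, adjusted p = 0.00433).

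Both tested metallothioneins, small metal-binding proteins, were higher. Mt1 was at 645, 646 and 678 FPKM in SB431542+TGFb libraries and 432, 520 and 522 FPKM in vehicle libraries (0.42, adjusted p = 0.00921), and Mt2 was at 233, 235 and 255 FPKM against 136, 211 and 185 FPKM (0.46, adjusted p = 0.0434). Without vehicle replicate 1, the lowest vehicle library for both, the values were 0.33 for Mt1 and 0.28 for Mt2 and neither was called; Mt2 was called only without vehicle replicate 2. The ligand Wnt4 rose by 0.55 (adjusted p = 0.00105) and the Wnt feedback gene Axin2 by 0.36 (adjusted p = 0.00263), the latter at 0.78 to 1.13 FPKM in SB431542+TGFb libraries and 0.44 to 0.53 FPKM in vehicle libraries.

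A few genes were lower in SB431542+TGFb than in both vehicle and SB431542 alone. Hsdl2, a peroxisomal dehydrogenase-like protein, was at 7.77, 8.31 and 9.22 FPKM in SB431542+TGFb libraries, 9.80, 10.3 and 10.1 FPKM with SB431542 alone and 9.84, 9.93 and 9.99 FPKM in vehicle libraries, with -0.21 against vehicle (adjusted p = 0.0325) and -0.23 against SB431542 alone (adjusted p = 0.0165). Twist1, a mesenchymal transcription factor, was at 31.7, 29.2 and 29.1 FPKM in SB431542+TGFb libraries, 34.4, 34.1 and 33.5 FPKM with SB431542 alone, 15.5, 16.3 and 17.1 FPKM with TGFb alone and 34.5, 34.3 and 33.5 FPKM in vehicle libraries (-0.18 against vehicle, adjusted p = 0.0236). The Hsdl2 call held only without SB431542+TGFb replicate 3 (-0.27 to -0.16 over the 6 fits) and the Twist1 call only without SB431542+TGFb replicate 1 (-0.22 to -0.16).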
